A study of Mus musculus with 6 samples.

Results

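Kinesins are motor proteins that use ATP to move along microtubules or to take their ends apart. They were represented by 104 of the 45101 probe sets on the arrays, those whose only gene symbol in the platform annotation was Kif followed by a digit or a c, which stand for 41 of the 18193 genes tested. The arrays measured RNA of C2C12 cells, an established line of mouse myoblasts that divide as single cells and can fuse into muscle fibres. Cells were seeded at 1500 per square centimetre, grown for 1 day in medium with 10% newborn calf serum, and then kept for 3 days in the same medium either without drug (untreated, 3 arrays) or with 10 µM 5-azacytidine (5AC, 3 arrays), a cytidine analogue that is built into RNA and DNA and traps DNA methyltransferases. Both groups were described as subconfluent, and total RNA was taken on day 3. Nothing in the labels says that the 3 arrays of a group came from different cultures. The p-values below therefore reflect array-to-array spread alone, and that spread could be technical.

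Kinesins share a motor domain that hydrolyses ATP, and what they carry or hold is set by the rest of the protein. One group works in cell division: it separates spindle poles, lines up chromosomes, and builds the central spindle and midbody at which daughter cells part. Cells make much of the RNA for these motors only late in the cell cycle. A second group carries vesicles, mitochondria, RNA and ciliary parts through cells that may or may not divide, and in muscle cells conventional kinesin also spaces the nuclei along the fibre. The 41 genes were sorted by these textbook roles into 14 mitotic motors, 17 transport motors, 9 with ciliary, signalling or mixed roles, and Kif28, which was left unclassed.

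Array medians lay between 20.4 and 21.0 intensity units and the median probe-set mean was 20.8, which is used below as the line under which a signal is called dim. Pairs of arrays correlated at 0.965 to 0.971 within a group and at 0.949 to 0.954 across groups. Of 10 myoblast genes, 9 exceeded the line in a group, among them Myod1, Myf5, Des and Cdh15. Of these 10, 7 were lower and 1 higher in 5AC (limma, adjusted p under 0.05), where 13.8% of all genes were lower and 15.6% higher. Among genes brighter than the line the shares were 20.6% and 22.5%. The 10 genes summed to 4721 to 5036 on untreated and 4217 to 4288 on 5AC arrays. The gene that rose was Myog, the differentiation factor myogenin, from 397 ± 49.1 to 1101 ± 51.1 (mean ± SD, n = 3 each). Pax7, which marks muscle stem cells, was dim in both groups. Of 6 leukocyte markers, 3 exceeded the line in a group. Fcer1g rose from 5.93 to 47.8, Csf1r was at 63.7 and 56.1 and Cd68 at 21.8 and 29.4, while Ptprc, Cd3e and Tyrobp were dim in both groups.

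Mitotic kinesins fell after 5AC, while transport kinesins were called in both directions, with positive changes in 13 of 17. Of 14 mitotic kinesin genes, 9 fell, 0 rose and 5 missed the threshold (limma, Benjamini-Hochberg adjusted p under 0.05 over all genes), where 13.8% of all genes tested were lower and 15.6% higher. At an unadjusted p under 0.05 the mitotic count was 10 lower and 0 higher. Of 17 transport kinesin genes, 3 rose, 2 fell and 12 missed the threshold, so 29.4% were called, the same share as the 29.4% called among all genes in either direction. Of the 9 other kinesin genes, Kif26b was higher and Kif24 lower.

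The median log2 change, 5AC minus untreated, was -0.62 over the mitotic genes, 0.24 over the transport genes and 0.01 over all 18193 genes. A change was negative in 13 of 14 mitotic genes, the exception being the dim Kif2b, and positive in 13 of 17 transport genes. By array, the median deviation of the mitotic genes from their untreated means was -0.49, -0.71 and -0.51 on the 5AC arrays. On the untreated arrays, whose own mean was the reference, it is centred near 0 by construction and was between -0.01 and 0.02. The same measure for transport genes was 0.22, 0.37 and 0.16 on the 5AC arrays. Of the 41 genes, 11 were dim in both groups, namely 4 mitotic, 3 transport and 3 other genes and Kif28, and none of these passed the threshold.

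**Figure D1:**
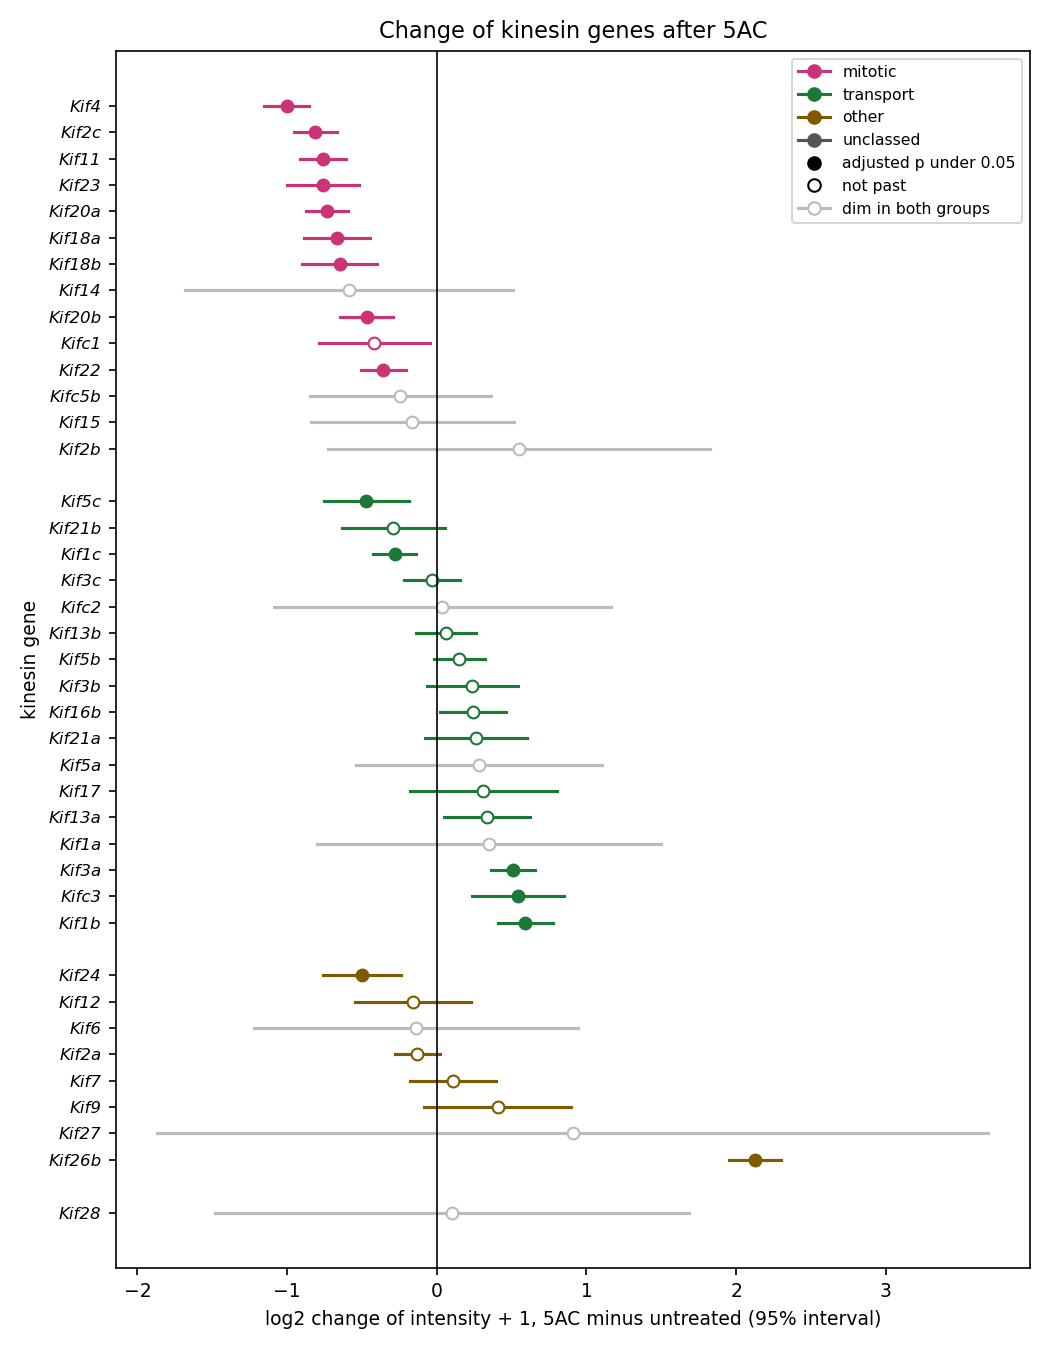
Log2 change of intensity + 1 (5AC minus untreated, x axis) with its 95% confidence interval for each kinesin gene (y axis), coloured by class; filled points passed the threshold and grey ones were dim in both groups. The 9 called mitotic genes all lie left of 0, the transport genes lie on both sides, and Kif26b stands alone at 2.13; Kif26a, with all values at or below 0, is not drawn.

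Promoter sequence was set beside these classes. Late cell cycle genes are known to be controlled through the cell cycle homology region (CHR, letters TTTGAA or TTCGAA), usually with CCAAT boxes close by. Windows from 250 bases before to 50 after an annotated start were available in RefSeq (build GRCm38.p6) for 33 of the 41 genes, in 37 windows, and not for Kif20a, Kifc3, Kif5b, Kif21b, Kif5a, Kif13b, Kifc2 and Kif28. The 3 mitotic genes with the lowest p among those with a window, the transport genes with the lowest p in each direction, likewise, and Kif26b, chosen after its values were seen, are shown from 250 bases before the start up to it, 5′ to 3′ on the strand of the gene. Capitals mark CCAAT and CHR letters read on either strand. Kif4 lies at chrX:100625815-100626064 on the plus strand, Kif2c at chr4:117178773-117179022 on the minus strand and Kif11 at chr19:37376132-37376381 on the plus strand. Kif3a lies at chr11:53567119-53567368, Kif1c at chr11:70700298-70700547 and Kif26b at chr1:178528875-178529124, each on the plus strand.
Kif4: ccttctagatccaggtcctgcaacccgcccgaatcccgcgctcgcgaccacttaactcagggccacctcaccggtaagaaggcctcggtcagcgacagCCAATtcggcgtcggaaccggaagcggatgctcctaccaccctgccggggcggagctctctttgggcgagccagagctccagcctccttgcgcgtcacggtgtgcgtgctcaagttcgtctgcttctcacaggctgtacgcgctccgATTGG
Kif2c: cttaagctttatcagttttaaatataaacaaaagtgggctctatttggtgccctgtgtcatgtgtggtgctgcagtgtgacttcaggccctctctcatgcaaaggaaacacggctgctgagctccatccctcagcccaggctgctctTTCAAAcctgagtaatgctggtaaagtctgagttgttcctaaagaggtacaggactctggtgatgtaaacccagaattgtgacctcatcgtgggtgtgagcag
Kif11: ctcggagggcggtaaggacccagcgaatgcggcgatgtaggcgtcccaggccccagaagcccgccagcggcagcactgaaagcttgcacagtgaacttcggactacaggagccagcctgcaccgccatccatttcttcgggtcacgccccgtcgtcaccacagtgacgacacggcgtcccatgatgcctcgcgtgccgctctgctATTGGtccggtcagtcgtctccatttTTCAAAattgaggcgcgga
Kif3a: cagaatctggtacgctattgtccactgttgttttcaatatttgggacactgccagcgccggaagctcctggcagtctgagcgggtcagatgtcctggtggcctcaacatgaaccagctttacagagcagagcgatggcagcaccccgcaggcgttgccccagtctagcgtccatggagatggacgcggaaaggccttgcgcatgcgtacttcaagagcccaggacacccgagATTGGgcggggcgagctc
Kif1c: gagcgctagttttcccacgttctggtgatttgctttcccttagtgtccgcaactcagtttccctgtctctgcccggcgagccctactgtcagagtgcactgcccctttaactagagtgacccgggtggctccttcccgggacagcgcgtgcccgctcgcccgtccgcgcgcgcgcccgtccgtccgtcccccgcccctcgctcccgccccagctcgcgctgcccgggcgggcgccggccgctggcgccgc
Kif26b: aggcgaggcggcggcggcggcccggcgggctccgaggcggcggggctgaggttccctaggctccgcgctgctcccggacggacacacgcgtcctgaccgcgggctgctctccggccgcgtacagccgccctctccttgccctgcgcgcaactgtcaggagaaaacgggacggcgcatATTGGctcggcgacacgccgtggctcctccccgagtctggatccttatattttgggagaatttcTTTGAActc
In Kif11 the CHR letters began 19 bases before the start and the CCAAT box 45 bases before it, both read on the opposite strand. In Kif4 the CHR letters began 20 bases after the start, outside the printed stretch. A CHR was present in 11 of 13 mitotic windows (84.6%), 1 of 13 transport windows (7.69%) and 19.2% of all 32851 windows of this length. CCAAT was present in 9 mitotic windows (69.2%), 4 transport windows (30.8%) and 37.4% of all. The 13 transport windows stood for 11 genes, and the 4 with CCAAT were those of Kif3a and Kif3b and 2 of Kif1b. A CHR and CCAAT stood together in 8 mitotic windows (61.5%), 0 transport windows and 7.52% of all. Among windows of the other kinesins, 3 of 11 held both (27.3%). The E2F letters TTTCGCGC, TTTGGCGC or TTTCCCGC were present in 2 mitotic windows, those of Kif18a and Kif15, in 0 transport windows and in 1.84% of all. All motifs were searched on both strands, and no 2 different motifs overlapped in a kinesin window. These are matches of letters and not measured binding. Among the 8 mitotic genes past the threshold with a window, Kif18a was without a CHR. The window of Kif26b, the kinesin that rose most, also held a CHR and a CCAAT box, so these letters were not confined to motors that fell. The 250 bases before the start held a median of 19 CpG sites in mitotic windows and 22 in transport windows, against 6 in all windows.

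Of 4 motors that build or focus the spindle, Kif11 fell and the others, Kifc1, Kifc5b and Kif15, did not pass. Kif11 encodes Eg5, the motor that slides antiparallel microtubules apart to make the spindle bipolar. Its intensity was 279, 284 and 284 on the untreated arrays and 159, 164 and 177 on the 5AC arrays. The groups did not overlap, and the log2 change was -0.76 ± 0.06 (SE, adjusted p = 0.00134). Its other 2 probe sets gave -0.91 and -0.80. Kifc1 encodes a minus-end motor that gathers spindle poles. It read 76.5, 61.2 and 76.1 untreated and 52.0, 46.0 and 61.5 in 5AC. One untreated array lay within the 5AC range, and the change of -0.42 did not pass (95% confidence interval -0.79 to -0.05, adjusted p = 0.0933). Its near-identical relative Kifc5b was dim, at 12.6 ± 4.24 and 10.1 ± 1.13, and signal of this pair may not be separable. Kif15, which can keep spindles bipolar when Eg5 is inhibited, was dim as well, at 18.7 ± 4.15 and 16.9 ± 5.36 (mean ± SD, n = 3 each).

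Of the motors of chromosomes and microtubule ends, Kif4, Kif2c, Kif18a, Kif18b and Kif22 fell and the dim Kif2b did not pass. Kif4, a chromosome-arm motor that also sets the length of the central spindle with PRC1, read 244, 260 and 270 untreated and 128, 129 and 127 in 5AC. By brightest probe sets, Kif4 was the only mitotic gene past a 2-fold change, at -1.00 ± 0.06 (adjusted p = 0.000706 against no change). Its 95% confidence interval, -1.15 to -0.85, also held changes smaller than 2-fold. Kif2c, the centromeric microtubule depolymerase MCAK, read 533, 506 and 501 untreated and 302, 292 and 282 in 5AC. Its change was -0.81 ± 0.06 (adjusted p = 0.00101), and its other 3 probe sets gave -1.01, -1.06 and -0.54, each past the threshold among all probe sets.

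The plus-end motor Kif18a, which damps chromosome movements at the metaphase plate, read 180, 180 and 171 untreated and 121, 114 and 100.1 in 5AC. Kif18b, a partner of MCAK at astral microtubules, read 292, 280 and 326 untreated and 194, 172 and 206 in 5AC. In both genes the highest 5AC array lay below the lowest untreated array, with changes of -0.67 ± 0.09 and -0.65 ± 0.10. Kif22 encodes Kid, which binds DNA and pushes chromosome arms outward. Its brightest probe set, of a type that can cross-hybridise, read 871, 875 and 822 untreated and 662, 645 and 696 in 5AC, a change of -0.36 ± 0.06 (adjusted p = 0.0101). Its other 2 probe sets, at 302 and 220 untreated, fell by 0.89 and 0.98 on the log2 scale.

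Of 4 motors of the central spindle and midbody, Kif20a, Kif23 and Kif20b fell and the dim Kif14 did not pass. Kif20a, or MKLP2, which brings the chromosomal passenger complex to the midzone, read 790, 774 and 805 untreated and 487, 454 and 484 in 5AC. Its 6 values fell into separate ranges, and its change was -0.73 ± 0.06 (adjusted p = 0.00114). Kif23, the motor of centralspindlin, read 397, 394 and 451 untreated and 258, 220 and 254 in 5AC, a change of -0.76 ± 0.10 (adjusted p = 0.00427). Another of its probe sets gave -0.90, and one at 2.30 untreated and 4.64 in 5AC did not pass. With the mean of its 3 probe sets the Kif23 call was lost (-0.26, adjusted p = 0.253). Kif20b, a midbody motor of abscission, read 326, 332 and 348 untreated and 259, 228 and 240 in 5AC, with no overlap and a change of -0.47 ± 0.07 (adjusted p = 0.00735). Its other 3 probe sets gave -0.29, -0.46 and 0.14 and did not pass. The Kif20b call was lost with the mean of its probe sets (-0.27, adjusted p = 0.0815). It was also lost with its brightest probe set free of the name suffixes s, x and a (-0.46, adjusted p = 0.221). That probe set was dim in both groups, at 17.7 untreated and 12.5 in 5AC, and its groups overlapped. Kif14, also a midbody motor, was dim at 7.12 ± 2.08 and 4.74 ± 2.54.

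**Figure D2:**
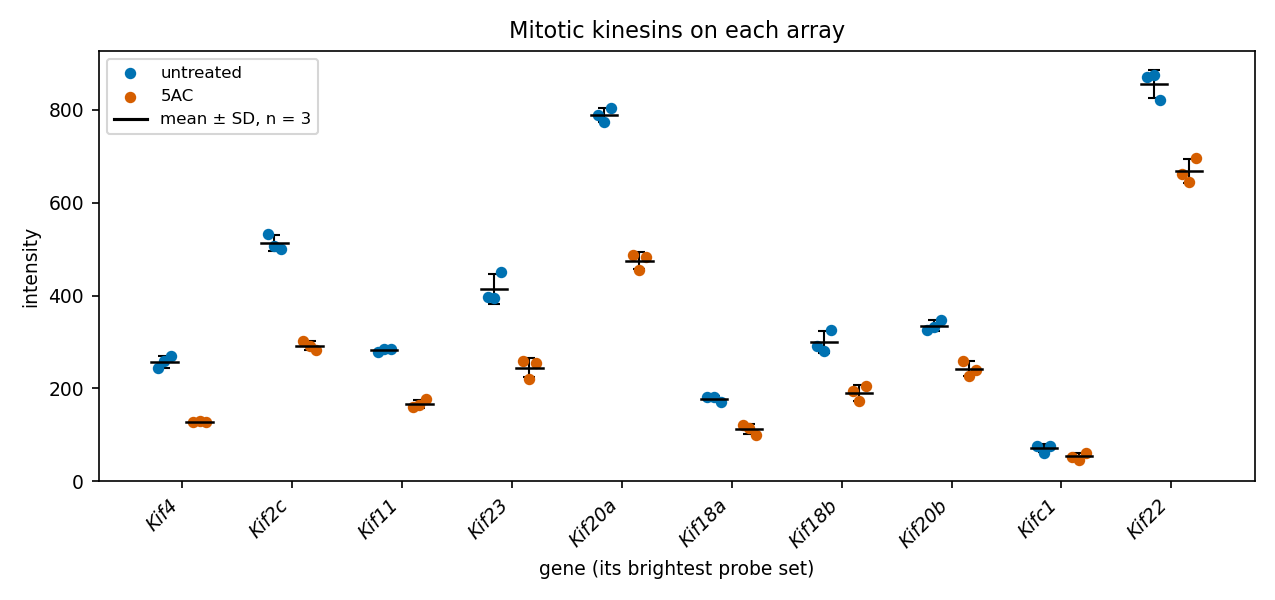
Intensity (y axis, from 0) on each of the 3 untreated and 3 5AC arrays for the 10 mitotic kinesin genes that were not dim (x axis), with mean ± SD. In 9 genes every 5AC point lies below every untreated point; in Kifc1 the groups overlap.

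Across kinesin genes, 20 of 41 had groups that did not overlap, 9 mitotic, 8 transport and 3 other, where 45.4% of all genes did not overlap. With any 1 array left out, all 9 mitotic calls remained, with adjusted p between 0.00456 and 0.0436. Whether fewer dividing cells or less of these RNAs in each cell lay behind a lower level cannot be told apart in bulk RNA. Proliferation genes moved alongside: Mki67, the Ki-67 antigen, went from 1043 ± 47.6 to 651 ± 48.4 and Top2a, the topoisomerase of chromosome condensation, from 1289 ± 8.52 to 791 ± 60.4. Their part in the result was not tested.

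Among transport motors, Kif3a, Kif1b and Kifc3 rose. Kif3a, a motor subunit of heterotrimeric kinesin-2 needed to build cilia, read 243, 234 and 232 untreated and 328, 353 and 330 in 5AC. The groups did not overlap and the change was 0.51 ± 0.06 (adjusted p = 0.00315), while its other 3 probe sets gave 0.35, 0.16 and -0.03 and did not pass. The call was lost with the mean of its probe sets (0.25, adjusted p = 0.123). Its partner Kif3b was at 70.7 ± 8.74 and 83.1 ± 6.85 by its brightest probe set (0.24 ± 0.12, adjusted p = 0.216), and 1 of its other probe sets, at 49.4 and 86.2, rose by 0.80. The alternative partner Kif3c was at 197 ± 14.7 and 192 ± 5.26 (-0.03, 95% confidence interval -0.22 to 0.15).

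Kif1b, a carrier of mitochondria and synaptic vesicle precursors, read 214, 210 and 217 untreated and 306, 351 and 311 in 5AC. Each 5AC array was above each untreated array, by 0.59 ± 0.07 on the log2 scale (adjusted p = 0.00394). All 7 of its probe sets had a positive change, from 0.22 to 0.80, and 3 passed among all probe sets. Kifc3, a minus-end motor, read 43.0, 43.9 and 56.8 untreated and 68.7, 70.6 and 69.9 in 5AC (0.54 ± 0.12, adjusted p = 0.0249). Its call was lost without untreated replicate 1 or 2 and without any of the 5AC arrays, with adjusted p of at most 0.0800.

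The heavy chains of conventional kinesin differed in their calls: Kif5c fell, and Kif5b and Kif5a did not pass. Kif5b, the ubiquitous heavy chain, read 564, 596 and 586 untreated and 689, 636 and 612 in 5AC. Although the groups did not overlap, the change of 0.15 did not pass (95% confidence interval -0.02 to 0.32, adjusted p = 0.167), and its other 5 probe sets gave -0.17 to 0.16. Kif5c, the neuron-enriched heavy chain, read 165, 144 and 160 untreated and 102, 129 and 107 in 5AC, a change of -0.47 ± 0.11 (adjusted p = 0.0313). The call was lost without any of the untreated arrays and without 5AC replicate 1 or 3 (adjusted p up to 0.0952). It was also lost with the mean of its probe sets (-0.33, adjusted p = 0.151). The other probe sets of Kif5c, all dim, gave -1.40, -0.75 and 1.30 and did not pass. The neuronal heavy chain Kif5a was dim. Kif1c, a vesicle and RNA carrier of non-neuronal cells, read 388, 390 and 420 untreated and 331, 329 and 324 in 5AC (-0.28 ± 0.06, adjusted p = 0.0183). Its call was lost without untreated replicate 2 and without any of the 5AC arrays (adjusted p up to 0.0614). With the mean of its probe sets the change was -0.02 (adjusted p = 0.913). The other probe sets of Kif1c gave -0.22, 0.11 and 0.33 and did not pass.

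The remaining transport genes did not pass. Kif13a and Kif16b, carriers of endosomes, had changes of 0.33 (adjusted p = 0.0867) and 0.24 (adjusted p = 0.0957) with groups that did not overlap. Kif13b, Kif17, Kif21a and Kif21b had changes from -0.29 to 0.31, and Kif1a and Kifc2 were dim. Of 7 neuronal markers, Nefl, Nefm and Tubb3 were lower and 0 were higher, where 13.8% of all genes were lower and 15.6% higher. The other 4, Syt1, Elavl4, Rbfox3 and Snap25, did not pass, with changes of 0.37, 0.18, 0.18 and -0.38. The list summed to 2640 to 2760 on untreated and 474 to 496 on 5AC arrays. Nefl, Nefm and Tubb3 had untreated means of 1446, 770 and 456 within that sum. No marker of the list was at 0 in a group mean, with Snap25 at 6.67 and Rbfox3 at 8.89 untreated. Their part in the changes of Kif5c and Kif1b was not tested.

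**Figure D3:**
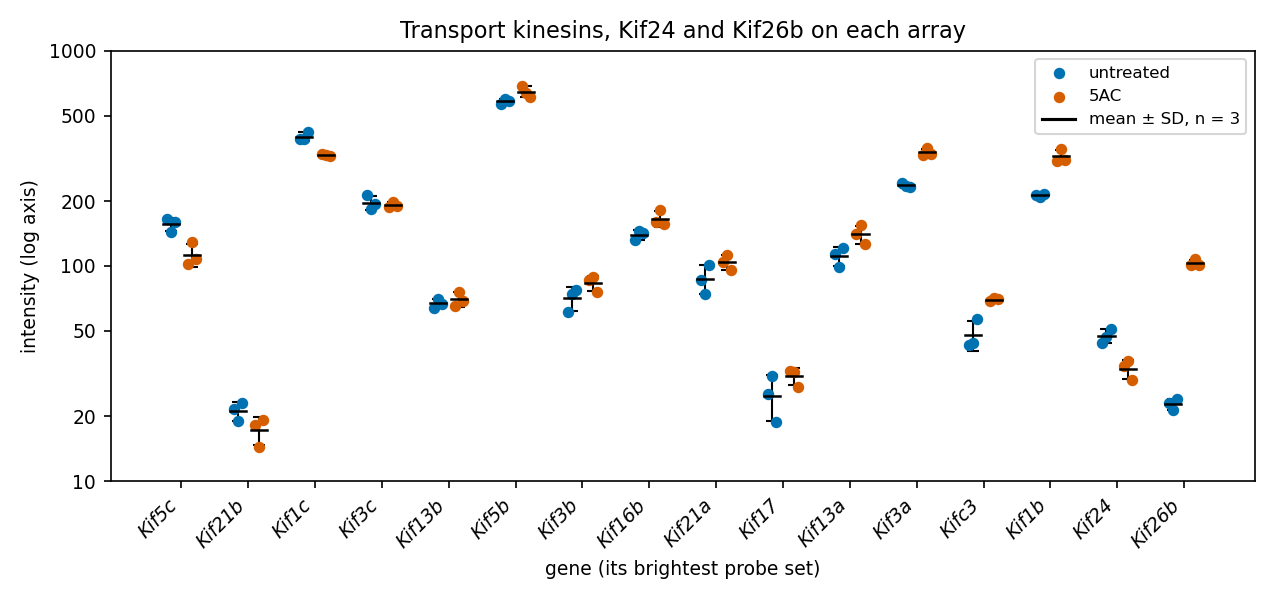
Intensity (log y axis) on each of the 3 untreated and 3 5AC arrays for the 14 transport kinesin genes that were not dim, and for Kif24 and Kif26b (x axis), with mean ± SD. Kif26b shows the widest separation, from about 22.9 to 103. In 8 of the 14 transport genes the groups do not overlap either, with smaller changes, where 45.4% of all genes did not overlap.

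Kif26b, a kinesin that does not move on microtubules and acts in cell adhesion and noncanonical Wnt signalling, had the largest change of the family. It read 23.1, 21.4 and 24.0 untreated and 101, 108 and 101 in 5AC. The 5AC values were narrow and far above the untreated ones, a 4.51-fold ratio of means and a log2 change of 2.13 ± 0.07 (adjusted p = 0.000281). With 16 in place of 1 added before the log, the change was 1.62 (adjusted p = 1.54e-05). By size of increase it stood at rank 132 among the 18193 genes. It is measured by 1 probe set, and its untreated level was just above the line for a dim signal. Of 7 epithelial markers, 3 rose in the same arrays (Krt8, Krt18 and Krt14) and 0 fell, where 15.6% of all genes rose and 13.8% fell. The list summed to 181 to 219 untreated and 3048 to 3352 in 5AC. Within that sum, Krt8, Krt18 and Krt14 had means of 15.9, 8.14 and 79.9 untreated and 1991, 711 and 347 in 5AC. Krt5 and Cldn4 did not pass, at 14.9 and 18.4 untreated and 20.3 and 30.7 in 5AC. The epithelial adhesion genes Epcam and Cdh1 were at 40.5 ± 5.84 and 16.3 ± 2.26 untreated and 39.1 ± 1.77 and 13.3 ± 2.64 in 5AC. Of 5 fibroblast and mesenchymal markers, 2 rose (sums of 323 to 370 and 467 to 484), and of 6 leukocyte markers, 1 (122 to 142 and 161 to 174). Their part in the rise of Kif26b was not tested.

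Kif24, a centriolar depolymerase that restrains cilium formation, read 43.9, 46.9 and 50.9 untreated and 34.1, 36.1 and 29.5 in 5AC (-0.50 ± 0.10, adjusted p = 0.0197). Its call was lost without untreated replicate 2 or 3 and without 5AC replicate 1 (adjusted p up to 0.0630), and its other 2 probe sets, at 19.9 and 7.67 untreated, gave 0.07 and 0.25. Kif2a, the depolymerase relative of Kif2c that works both at the spindle and in growing axons, was at 385 ± 18.0 and 351 ± 7.07 (-0.13, 95% confidence interval -0.28 to 0.02). The ciliary regulator Kif7 was at 47.1 ± 2.08 and 51.1 ± 6.90. Kif9 and Kif12 lay near the dim line, Kif6 and Kif27 were dim, and Kif26a, the relative of Kif26b, was listed below 0 as a mean in both groups.

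Over single probe sets, mitotic kinesins were again called in 1 direction, while the decreases called among transport genes were lost. Of 27 mitotic probe sets, 17 were lower and 0 higher (19 and 0 at an unadjusted p under 0.05), where 8.75% of 45037 probe sets were lower and 8.15% higher. Of 59 transport probe sets, 6 were higher and 0 lower (limma, 14 and 2 at an unadjusted p under 0.05). The called decreases of Kif1c and Kif5c missed the threshold in this larger table, at adjusted p = 0.0522 and 0.0557. Probe sets of 1 gene share their RNA and are not replicates.

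**Figure D4:**
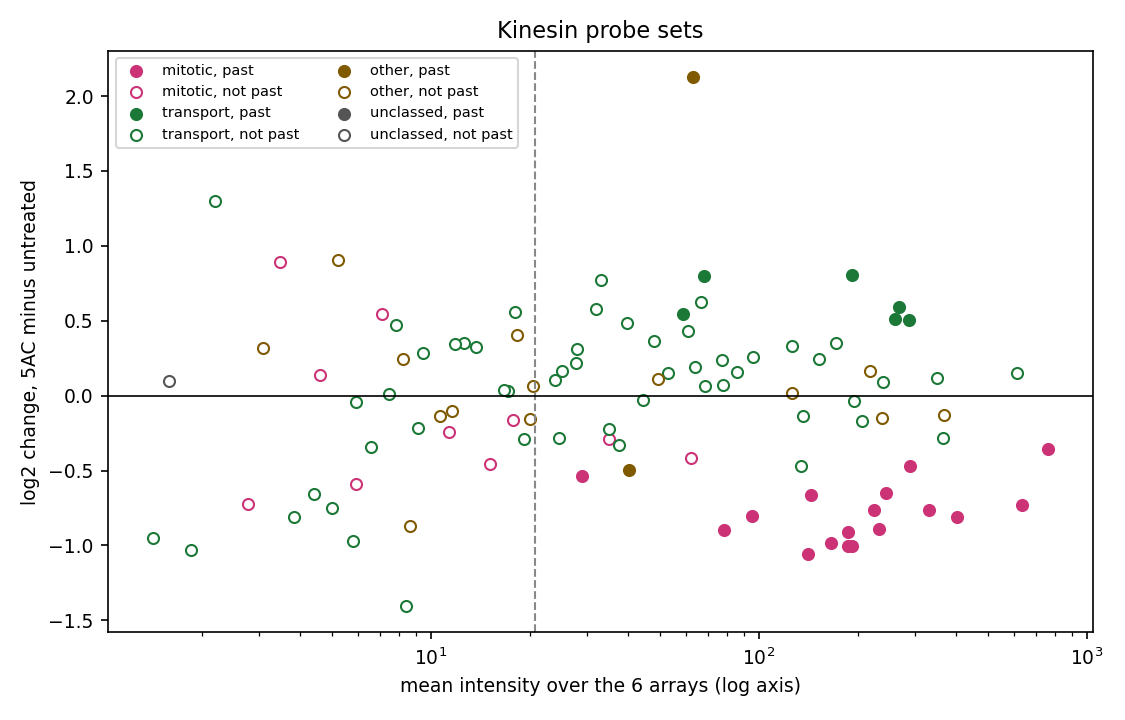
Log2 change (y axis) against mean intensity over the 6 arrays (log x axis) for the kinesin probe sets with a mean above 0, coloured by class and filled where past the threshold. Called mitotic probe sets lie below 0, called transport probe sets above, and the 25 calls lie right of the dashed line at 20.8.

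Proteins that work with the motors were read from lists set by textbook role. Of 21 partners of mitotic motors, 18 fell and 0 rose (18 and 0 at an unadjusted p under 0.05), with a median log2 change of -0.64. Of all genes, 13.8% fell and 15.6% rose. Prc1, which binds KIF4A at the central spindle, fell from a mean of 784 to 391 (-1.00 ± 0.06). Aurkb, the passenger kinase that KIF20A delivers, fell by 0.90 on the log2 scale, the kinetochore gene Kntc1 by 0.89, and Cenpe, itself a kinetochore kinesin outside the naming rule, by 0.85. Of 24 regulators and readouts of mitotic gene expression, 11 fell (45.8%) and 2 rose (8.33%). The repressors E2f8 and E2f7 fell by 1.08 and 1.05, Top2a by 0.71, and the cell cycle inhibitor gene Cdkn1a rose by 0.91 ± 0.06. Foxm1, an activator of late cell cycle genes, went from 144 ± 14.4 to 109.9 ± 2.30 (-0.38 ± 0.09, adjusted p = 0.0290), and Mybl2 had a change of -0.34 (adjusted p = 0.0638).

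Partners of transport motors and the opposing motor were called in both directions, as all genes were. Of 15 cargo partners, 3 rose and 3 fell (20% each), where 15.6% of all genes rose and 13.8% fell. Among genes brighter than the median probe-set mean, 22.5% rose and 20.6% fell. The kinesin light chain genes differed among themselves: Klc4 rose from 73.9 ± 5.94 to 127 ± 9.67, Klc1 fell from 252 ± 10.6 to 187 ± 10.0, and Klc3, which was dim in 5AC, fell by 0.83 (-0.49 with 16 added). The mitochondrial adaptor gene Rhot2 rose by 0.33. Kifap3, the non-motor subunit of kinesin-2, had a change of 0.10 (adjusted p = 0.185). Of 22 genes of dynein and dynactin, the minus-end motor and its activator, 5 rose and 5 fell (22.7% each). Pafah1b1, or LIS1, rose by 0.87 ± 0.05, Dync1li1 by 0.61 ± 0.15, and Nde1, a LIS1 partner, fell by 0.84. Dynlt1f fell by 1.23, a gene of near-identical copies that the probe set may not separate. Of 14 tubulins, 4 fell (28.6%) and 1 rose (7.14%). Tubb3 fell by 1.22, Tube1 by 0.66 and the nucleating gamma tubulin Tubg1 by 0.53, while Tubd1 rose by 0.30 ± 0.08 (adjusted p = 0.0478), a call lost under both other scalings and without any single array other than 5AC replicate 2.

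**Figure D5:**
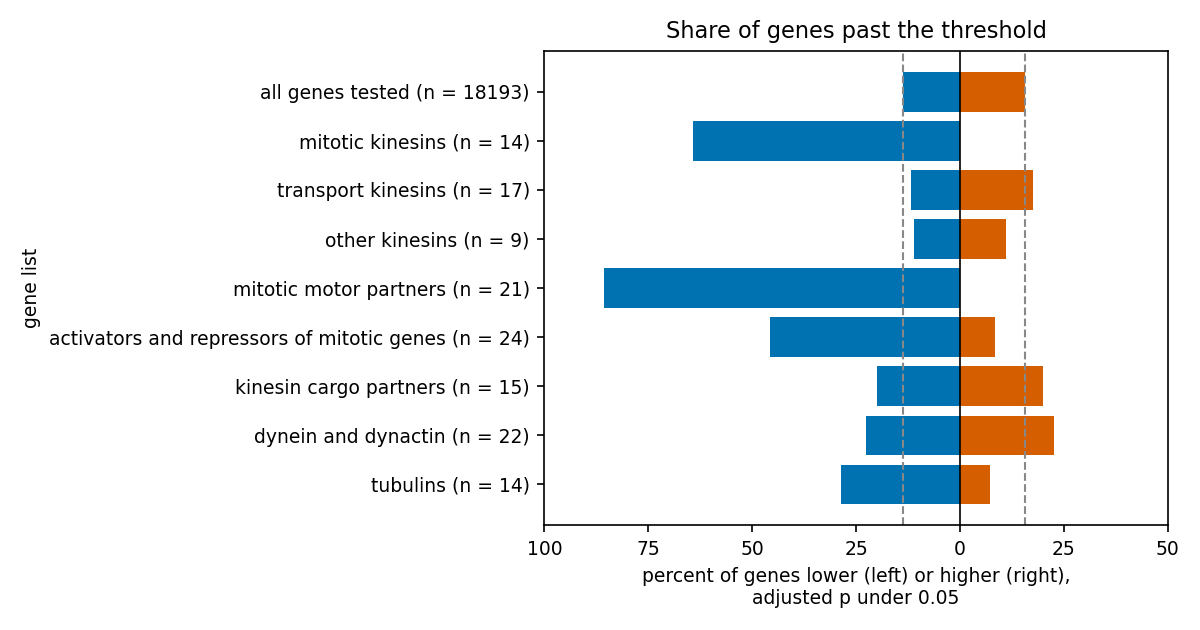
Percent of genes lower (left bars) or higher (right bars) in 5AC at adjusted p under 0.05 for all genes tested, the kinesin classes and the partner lists (y axis, with n). Dashed lines mark the 13.8% lower and 15.6% higher among all genes; the bars of mitotic kinesins and their partners reach 64.3% and 85.7% lower with 0 higher, and the transport bars lie near the lines.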

How the data were processed

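RNA abundance was measured on 6 arrays, grouped by their titles. The authors deposited 1 table of linear intensity, a value for each probe set. Per the submitters' processing notes, GCOS 1.4 and R 2.4.1 were used, with no role stated. How probes were summarized and arrays normalized is not given in the sources used here. The number of arrays limits the precision. Detection calls were not used here.

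The platform annotation gave 34945 probe sets 1 gene symbol, 932 several and 9160 none, beside 64 controls. All 41 kinesin genes matched the RefSeq gene table (GRCm38.p6) by Entrez number. Values below 0 were set to 0, and limma 3.58.1 (R 4.3.3; lmFit, then eBayes; two-sided) tested log2(intensity + 1). Each gene was represented by its brightest probe set (18193 genes). A second fit covered all 45037 probe sets. Adjustment was over the whole table. The code was tested on simulated data. No set was tested.

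Members, classes and lists were chosen with earlier results of these data known. Array values are given for called genes brighter than the median in a group and for Kif11, Kif5b, Kif3a and Kifc1, and of each partner list up to 4 genes with the largest called change, with others named after their values were seen. One probe set shared by Kif27 and a predicted gene was left out. Alternatives were other scaling, offset, moderation, weights, threshold, size limit, probe-set rules, a replicate block, leaving out dim genes and each array.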

Additional observations from a re-analysis of the deposited data

How the results depend on the processing

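The 9 lower calls among mitotic kinesins ranged from 7 to 10 under all alternatives but the test against 1.5-fold, where 1, Kif4, remained, and were 9 without any 1 array. Kif4 and Kif26b kept their calls in all 18 alternatives, while 14 of 16 called genes lost theirs in at least 1, and no called direction reversed. Over all kinesin genes, 4 higher and 12 lower became 1 and 1 in the test against 1.5-fold, 7 were higher with an intensity trend and 7 lower with the mean of a gene's probe sets, in which dim probe sets weigh equally. Transport genes were higher in 5 cases with dim genes left out, 6 with an intensity trend and 0 in the 1.5-fold test (0 unadjusted). Of all genes, 29.4% were called in the main fit and 54.2% with dim genes left out. That share was 35.6% with the trend, 15.7% at 0.01, 3.47% in the 1.5-fold test and 20.7% with the mean of probe sets. Lower transport genes were 0 with the replicate block (3 at an unadjusted p under 0.05), the threshold of 0.01, the 1.5-fold test and the mean of probe sets, and 0 to 1 without single arrays. Lower genes of other roles were 0 under the same 4 settings, and 0 to 1 without single arrays. Kinesin probe sets that were higher numbered 0 with the replicate block, 12 with dim probe sets left out, 11 with an intensity trend, 2 at 0.01, 1 in the 1.5-fold test and 4 to 9 without single arrays. Those lower numbered 0 with the block (limma, 26 lower and 12 higher unadjusted, and 0 of all 45037 adjusted) and 1 in the 1.5-fold test. The share called of all probe sets moved too, from 16.9% to 46.6% with dim ones left out and 24.2% with the trend. It was 6.26% at 0.01, 1.69% in the 1.5-fold test and 8.51% to 12.1% without single arrays. The labels do not say whether replicate numbers pair the arrays. Same-numbered deviations correlated at -0.04, 0.01 and -0.01, which shows no shared replicate effect but cannot settle whether arrays were paired. The block also ended the calls of Kif22, Kif1c, Kifc3, Kif5c and Kif24 and left 17.8% of all genes called. The 1 called tubulin increase was lost with quantile normalization and median centring. The causes were not tested. Dim signals limit what can be said of Kif14, Kif15, Kif2b and Kifc5b.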

Other observations

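The probe set annotated to both Kif27 and a predicted gene was dim, at 4.04 ± 3.52 untreated and 2.21 ± 0.489 in 5AC (mean ± SD, n = 3 each), with overlapping groups. Matches of CHR and CCAAT letters were also present together in the windows of Kif24, which was lower in 5AC, and of the dim Kif27.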
